A study of Mus musculus with 6 samples.

Results

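10 mouse genes best known from other cell types or tissues were followed in sorted bone marrow plasma cells and spleen B cells: Prg2, Prg3, Pon1, Pon2, Pon3, Rsph1, Reln, Pls1, Oosp1 and Pgam2. 7 of them (Prg2, Pon3, Rsph1, Reln, Pls1, Oosp1 and Pgam2) were chosen by their plasma cell levels in an earlier comparison of these same arrays, and the paralogues Prg3, Pon1 and Pon2 were added as contrast. They are represented by 14 of the 45101 probe sets on the array and by 10 of 18193 measured genes. Because the members were selected on this contrast, their values are given as a description, with no test.

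The plasma cells (3 arrays) came from the bone marrow of C57BL/6 mice, were taken 7 days after boosting with KLH, a protein antigen, were enriched on beads through CD138, and were then sorted as B220 negative and CD138 positive. The B cells (3 arrays) came from the spleen of C57BL/6 mice, are called naive in the design text, and were sorted as positive for B220 and CD23. A plasma cell array used 50000 to 70000 cells and a B cell array 2000000 to 3000000, and biotin-labelled material made with a NuGEN amplification kit was hybridised to 1-colour Affymetrix arrays. Age, sex and the number of animals behind an array are not in the labels, so errors and p-values describe how far these arrays differ from each other, which may be technical spread. Tissue, boost, bead enrichment and input differ together with cell type and cannot be told apart from it. The signal of sex-linked genes, given below, also differs in part with cell type. In these bulk samples, fewer cells of a type and less RNA per cell cannot be told apart.

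Plasma cells are the antibody-secreting end stage of the B cell lineage and devote most of their protein synthesis to immunoglobulin. The members have other textbook homes. Prg2 and Prg3 encode the major basic protein of eosinophil granules and its homologue, the paraoxonases are lactonases of liver, plasma lipoproteins and membranes, Rsph1 belongs to the radial spokes of motile cilia, and reelin is a secreted guide of migrating neurons. Plastin 1 bundles actin in intestinal microvilli, Oosp1 was named for its secretion by oocytes, and Pgam2 is the muscle form of the glycolytic enzyme phosphoglycerate mutase.

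The sort markers matched the labels. Sdc1, which encodes CD138, read 13218, 12664 and 12851 intensity units on the plasma cell arrays and 969, 1065 and 1183 on the B cell arrays, and Fcer2a, which encodes CD23, read 52.0, 44.0 and 48.4 in plasma cells against 5061, 6734 and 6301 in B cells. B cell array 1 stood apart from the other B cell arrays. Its log2 values correlated with theirs at 0.934 and 0.926 across probe sets, whereas B cell arrays 2 and 3 correlated at 0.992 and the plasma cell arrays at 0.985 to 0.989. Its median intensity was 130, against 86.7 to 95.1 on the other arrays. Xist, the RNA of the inactive X chromosome, read 8702, 8070 and 8244 in plasma cells against 8408, 30.8 and 18.1 in B cells, and the Y-linked Kdm5d read 8.84, 7.89 and 3.00 in plasma cells against 3.57, 1507 and 1576 in B cells. In these sex-linked genes B cell array 1 resembled the plasma cell arrays and not its own group, so member fold changes are given with and without it. Without B cell array 1, the plasma cell arrays, high in Xist, are compared only with arrays low in Xist and high in Kdm5d. In that comparison the sex-linked pattern cannot be told apart from cell type.

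7 members had log2 fold changes over 6 (plasma cells over B cells, on log2 of intensity + 16), between 6.42 for Pgam2 and 7.15 for Pon3. Without B cell array 1 the 7 values lay between 6.36 and 7.43, and against B cell array 1 alone between 6.18 and 7.60. All plasma cell arrays lay above all B cell arrays for 9 of the 10 members, with Pon1 the exception, in a comparison where 25.4% of all genes were separated in this way. Since the contrast chose the members, nothing is read from that count. The median log2 fold change of all genes was -0.06. Background here is the level that 95% of 27 bacterial control probe sets stayed at or under on the same array, between 23.0 and 41.8 units.

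**Figure D1:**
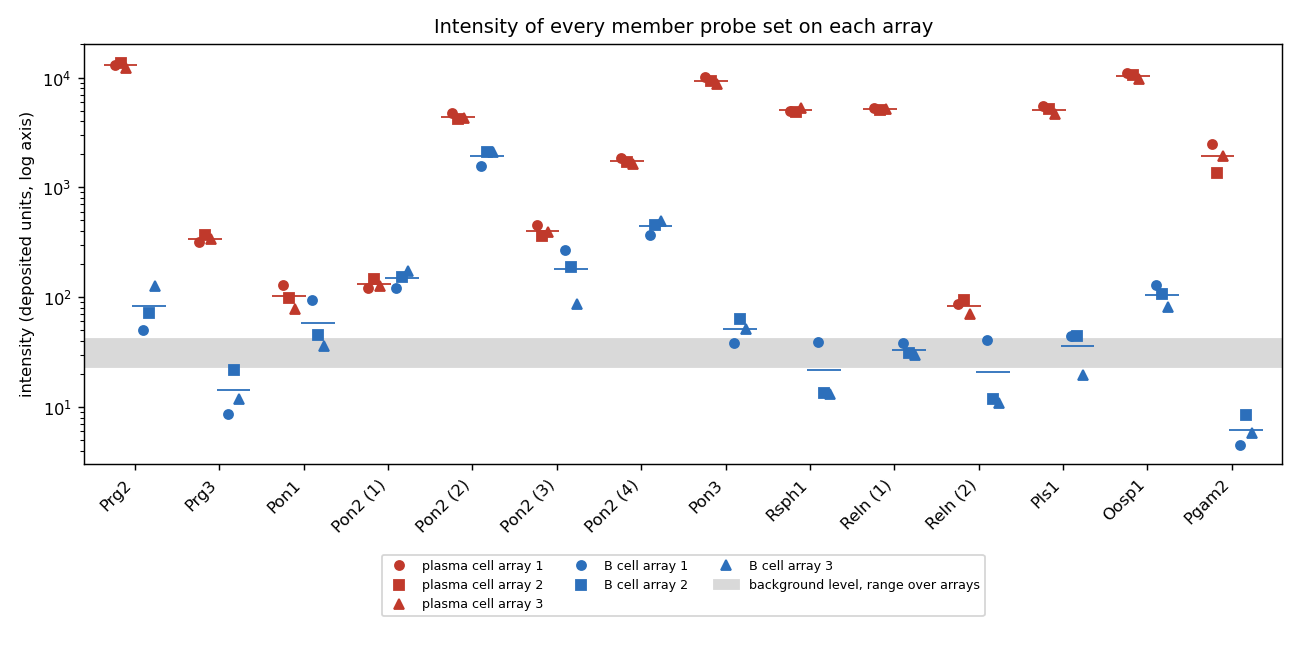
Intensity (log axis, deposited units) of all 14 member probe sets on each of the 3 plasma cell arrays (red) and 3 B cell arrays (blue), with group means as short lines and the background level of bacterial control probe sets, 23.0 to 41.8 over the arrays, as a grey band. Pon2 (2) and Reln (1) are the probe sets used for the fold changes, and 7 genes are high on every plasma cell array with B cell values of 128 or lower.

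The spread among plasma cell arrays was small for 6 of these 7 genes, whose highest plasma cell array was 1.04 to 1.18 times the lowest. Pgam2 was the exception at 1.82 times. As log2 standard deviations over the 3 plasma cell arrays, Reln had 0.03, Prg2 and Rsph1 each had 0.07, Pls1 had 0.12 and Pgam2 had 0.43. The median over all genes was 0.16, but it is not matched for intensity. Some other bright genes were as level, such as Sdc1 (0.03) and Tnfrsf17 (0.05), and others were not, such as Oosp2 (0.25) and S100a8 (0.67). A small spread is therefore not particular to these members.

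**Figure D2:**
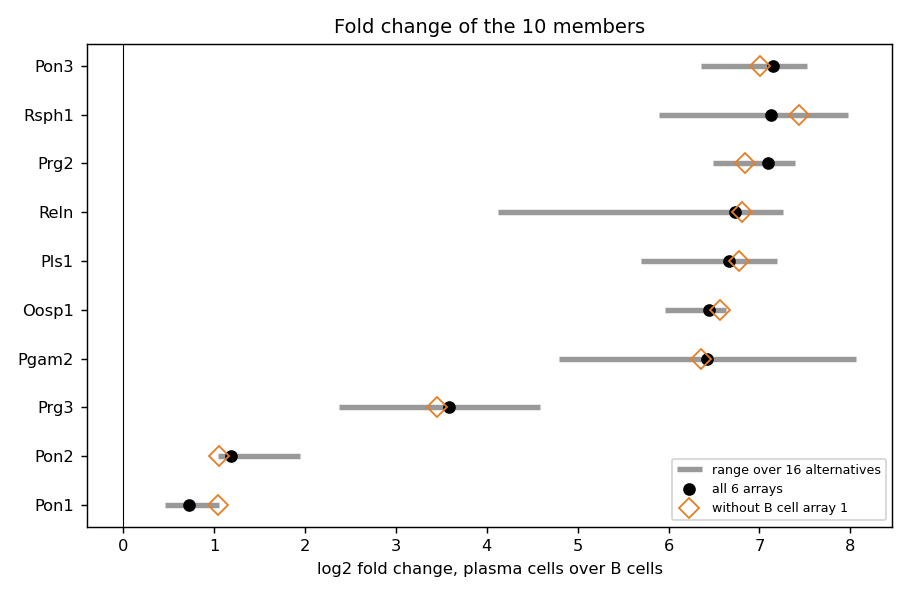
Log2 fold change of plasma cells over B cells for each of the 10 members with all 6 arrays (black points), without B cell array 1 (orange diamonds) and as the range over 16 alternative settings (grey bars). The 7 genes from Pon3 down to Pgam2 stay at or above 4.12, and Prg3, Pon2 and Pon1 lie below them in the all-array values.

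Prg2, the eosinophil major basic protein, read 12889, 13530 and 12227 in plasma cells against 50.6, 72.3 and 127 in B cells. The groups are far apart, and all B cell arrays were above the background level of their array. Mean intensity was 12882 ± 652 (SD, n = 3) in plasma cells against 83.2 ± 39.3 in B cells, a log2 fold change of 7.09, or 6.84 without B cell array 1. Its homologue Prg3, which lies next to it on the chromosome, read 317, 364 and 337 in plasma cells against 8.68, 21.8 and 11.9 in B cells. All 3 B cell values of Prg3 lay within background, so the mean of 339 ± 23.9 in plasma cells was at least 11.8-fold higher than in B cells. The log2 fold change of Prg3 was 3.58, which is 3.51 below that of Prg2. On the scale of the added constant it ranged between 2.37 and 4.58 as the constant was raised or lowered, and Prg3 stayed below Prg2 in each of these settings.

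Of the other genes listed for eosinophils, basophils and mast cells, 1 was called in each direction. Of 20 listed genes 14 were measured. With limma, 1 (7.14%) was called higher and 1 (7.14%) lower (adjusted p under 0.05), beside 17.6% and 12.3% of all genes. With 14 genes, counts of 1 are too small to set the list apart from these shares. The median log2 fold change of the list was -0.49, and 6 of its genes lay within background on every plasma cell array. The higher gene was Hdc, the enzyme that makes histamine, with 101, 97.7 and 84.0 in plasma cells against 48.4, 49.1 and 52.7 in B cells (0.73 ± 0.12 SE on the log2 scale, adjusted p = 0.0062), a call lost when the variance prior followed intensity (adjusted p = 0.056). The lower gene was Gata2, a transcription factor of mast cells and progenitors, with 35.0, 45.7 and 47.2 in plasma cells against 407, 105 and 172 in B cells (log2 fold change -1.87 ± 0.45, adjusted p = 0.0262), and its other probe set was at -0.82. That call was lost without B cell array 3 (adjusted p = 0.0647) and without plasma cell arrays 1, 2 or 3 (0.0928, 0.0789 and 0.0741). Without B cell array 1, 3 genes of the list were called lower, and with array weights 5 were.

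Markers of the cells that normally make Prg2 were read beside it. Epx, the eosinophil peroxidase, read 2.04, 16.9 and 11.1 in plasma cells against 8.16, 24.3 and 35.1 in B cells. Siglecf, an eosinophil surface lectin, read 5.73, 5.37 and 4.39 in plasma cells against 60.2, 23.2 and 9.21 in B cells. Ccr3, the eotaxin receptor, read 11.6, 8.60 and 15.6 in plasma cells against 25.0, 6.10 and 9.36 in B cells. Of 7 listed eosinophil markers 4 were measured, and these 3 of them lay within background on every plasma cell array. The other one was Il5ra, the interleukin 5 receptor subunit, with 1966, 1446 and 1310 in plasma cells against 837, 1079 and 1011 in B cells (log2 fold change 0.67, adjusted p = 0.0504, between 0.0161 and 0.134 over the alternatives). Il5ra carried nearly all of the summed marker intensity, which was 1341 to 1985 in plasma cells against 931, 1132 and 1065 in B cells. The 5 measured basophil and mast cell markers summed to 216 to 251 in plasma cells against 479, 172 and 175 in B cells.

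Neutrophil markers differed between arrays in another way. The 8 neutrophil and precursor markers summed to 8719 to 20968 in plasma cells against 12834, 2800 and 1793 in B cells. S100a8, a neutrophil calcium-binding protein, read 2838, 7001 and 5397 in plasma cells against 4444, 892 and 644 in B cells, and Ngp, a neutrophil granule protein, read 803, 1881 and 898 in plasma cells against 959, 52.5 and 33.2 in B cells. On B cell array 1 both were above B cell arrays 2 and 3. Prg2 read 50.6, 72.3 and 127 on B cell arrays 1, 2 and 3. Of the 8 markers, 1 (12.5%) was called higher, beside 17.6% of all genes. It was the granule peroxidase Mpo (log2 fold change 1.49 ± 0.30, adjusted p = 0.0139), and that call was lost without plasma cell array 2 (0.0582) or 3 (0.0532). With B cell array 1 left out, S100a8 (0.00669) and Ngp (0.00133) were called higher too. The 4 measured erythroid markers summed to 194 to 506 in plasma cells against 1373, 72.2 and 91.9 in B cells. The part of eosinophil, neutrophil or erythroid RNA in the members' values was not tested.

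**Figure D3:**
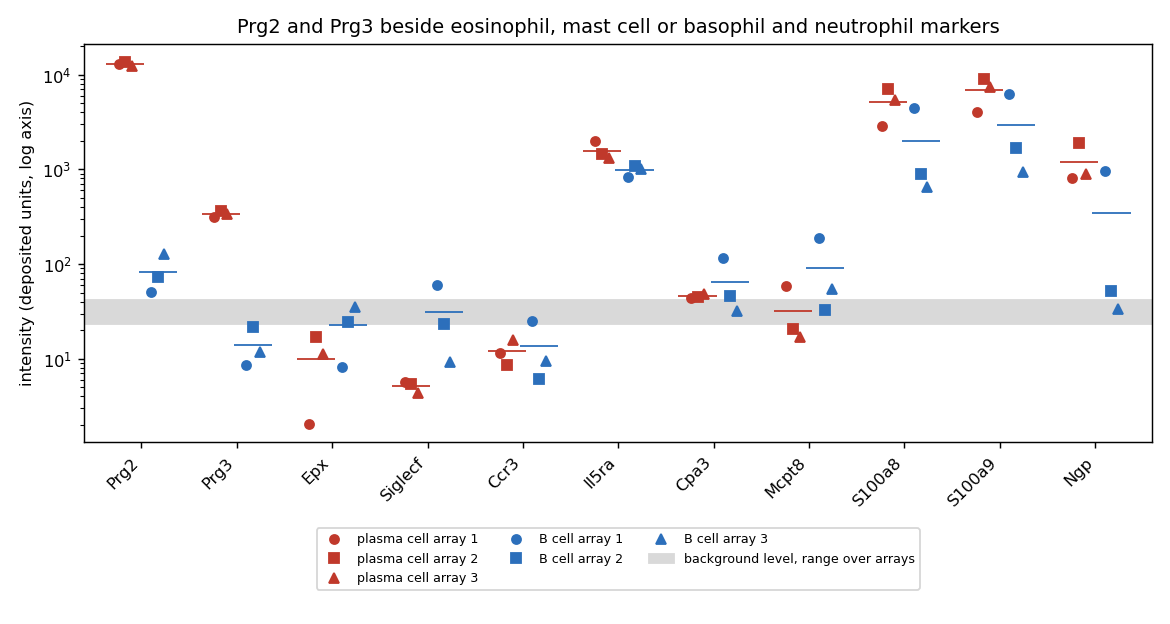
Intensity (log axis) of Prg2 and Prg3 beside markers of eosinophils (Epx, Siglecf, Ccr3, Il5ra), basophils or mast cells (Cpa3, Mcpt8) and neutrophils (S100a8, S100a9, Ngp) on the 3 plasma cell arrays (red) and 3 B cell arrays (blue), with group means as short lines and the range of the background level in grey. Prg2 reads 12227 to 13530 on plasma cell arrays on which Epx, Siglecf and Ccr3 are within background and Il5ra reads 1310 to 1966.

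The 3 paraoxonase genes lie side by side in the order Pon1, Pon3, Pon2, and their fold changes differed widely. Pon3, a lactonase of liver that associates with high-density lipoprotein, read 10014, 9308 and 8818 in plasma cells against 38.4, 63.3 and 51.1 in B cells. Only B cell arrays 2 and 3 were above background. The means were 9380 ± 601 in plasma cells against 50.9 ± 12.4 in B cells (SD, n = 3 each), and the log2 fold change was 7.15, or 7.01 without B cell array 1.

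Pon1, the serum paraoxonase secreted by liver, read 129, 98.5 and 78.2 in plasma cells against 94.4, 45.3 and 35.8 in B cells. The groups overlap because B cell array 1 lies above the lowest plasma cell array. The log2 fold change was 0.72 with all arrays, 1.04 without B cell array 1 and 0.07 against that array alone. It lay 6.43 below the log2 fold change of Pon3.

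Pon2, the widely expressed intracellular paraoxonase, has 4 probe sets. The one used for the gene, of a design that can match several transcripts, read 4702, 4180 and 4247 in plasma cells against 1575, 2111 and 2100 in B cells, with no overlap and a log2 fold change of 1.19. Another read 1842, 1710 and 1615 in plasma cells against 367, 454 and 498 in B cells, a log2 fold change of 1.94. The third had a log2 fold change of 1.20 with B cell values that ranged between 85.8 and 270, and the fourth overlapped between the groups with a log2 fold change of -0.15. All 4 fell far short of the single Pon3 probe set, whose log2 fold change was 5.96 above that of the Pon2 probe set used for the gene.

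The sequences before the starts of the 3 paraoxonase genes, 250 bases each from RefSeq on build GRCm38.p6, are shown because neighbouring paralogues with unlike fold changes can be read side by side. Capitals mark CG dinucleotides, and each is written 5′ to 3′ on the gene's strand. The windows are chr6:5193947-5194196 for Pon1, chr6:5256234-5256483 for Pon3 and chr6:5298341-5298590 for Pon2, all on the minus strand.
Pon1: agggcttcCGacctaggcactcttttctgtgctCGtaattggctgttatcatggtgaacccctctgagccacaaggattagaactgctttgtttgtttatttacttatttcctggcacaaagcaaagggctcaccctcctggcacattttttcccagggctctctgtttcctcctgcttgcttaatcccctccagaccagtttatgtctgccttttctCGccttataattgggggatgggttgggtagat
Pon3: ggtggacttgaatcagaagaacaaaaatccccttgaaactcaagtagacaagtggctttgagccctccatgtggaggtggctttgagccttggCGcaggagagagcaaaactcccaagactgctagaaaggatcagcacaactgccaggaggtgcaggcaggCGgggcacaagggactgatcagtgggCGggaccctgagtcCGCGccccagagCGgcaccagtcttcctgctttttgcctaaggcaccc
Pon2: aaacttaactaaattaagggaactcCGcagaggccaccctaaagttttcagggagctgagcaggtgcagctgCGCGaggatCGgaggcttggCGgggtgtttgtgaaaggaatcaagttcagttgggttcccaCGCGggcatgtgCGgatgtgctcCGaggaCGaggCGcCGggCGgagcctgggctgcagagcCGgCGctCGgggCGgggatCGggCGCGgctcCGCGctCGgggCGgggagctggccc
Pon1 had 3 CG dinucleotides and 47.6% G+C, Pon3 had 6 and 56.8%, and Pon2 had 24 and 65.6%. Over 32851 mouse promoter windows of this length the medians were 6 CG dinucleotides and 52.4% G+C. Pon3 lies at the median count, Pon2 above it and Pon1 below it, although Pon1 and Pon2 were both above background on all 6 arrays.

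Genes of lipoprotein metabolism moved in both directions. Of 16 listed genes 15 were measured, 2 (13.3%) were called higher and 4 (26.7%) lower, beside 17.6% and 12.3% of all genes. The median log2 fold change was -0.27. Apoa2, an apolipoprotein of high-density lipoprotein, read 826, 987 and 814 in plasma cells against 22.0, 54.3 and 61.8 in B cells, and rose by 3.91 ± 0.29 SE on the log2 scale (adjusted p = 0.000331). Lcat, which esterifies cholesterol on that particle, read 718, 926 and 658 in plasma cells against 97.8, 141 and 140 in B cells and rose by 2.46 ± 0.20 (adjusted p = 0.000446). Both calls held in all 16 alternatives. Apoe, a ligand of lipoprotein receptors, read 89.8, 132 and 152 in plasma cells against 680, 740 and 583 in B cells and fell by 2.30 ± 0.21 (adjusted p = 0.000667). Pla2g7, the platelet-activating factor hydrolase, was within background on all plasma cell arrays, at least 2.47-fold lower than in B cells (adjusted p = 0.00717). Of 5 measured markers of monocytes and macrophages, which also express Apoe, 4 were called lower (Lyz2, Adgre1, Csf1r and Ccr2) and 1 higher (Cd68), with sums of 1810 to 2268 in plasma cells against 5962, 3812 and 4238 in B cells. Their part in the values of Apoe and Pla2g7 was not tested. The other lower genes of the list were Scarb1 and Pltp, the count of lower genes was 2 after median centring, and 4 genes were higher without B cell array 1.

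Reln encodes reelin, a large secreted glycoprotein that binds the receptors Vldlr and Lrp8 on neurons and acts through the adaptor Dab1 and Src family kinases. Its main probe set read 5280, 5098 and 5119 in plasma cells against 38.5, 30.8 and 29.4 in B cells. Plasma cell values were nearly level, and B cell values were close to background, above it on arrays 2 and 3 only. The means were 5166 ± 99.5 in plasma cells against 32.9 ± 4.91 in B cells, and the log2 fold change was 6.73, or 6.81 without B cell array 1. A second probe set read 87.0, 93.6 and 70.7 in plasma cells against 40.4, 11.7 and 10.9 in B cells. All its B cell values were within background, and plasma cells were at least 2.90-fold higher. Averaging the 2 probe sets lowered the log2 fold change of Reln to 4.12.

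The reelin pathway had no uniform direction. All 20 listed genes were measured, and 4 were called higher and 2 lower, beside 17.6% and 12.3% of all genes. With 20 genes, these counts are too small to set the list apart from these shares. The median log2 fold change was -0.26. Of the receptors, Vldlr read 32.6, 65.8 and 97.0 in plasma cells against 80.3, 90.6 and 136 in B cells, with overlapping groups (log2 fold change -0.60 ± 0.35, adjusted p = 0.259). Lrp8 read 116, 148 and 118 in plasma cells against 89.4, 48.7 and 47.7 in B cells (0.91 ± 0.24, adjusted p = 0.0324). The call for Lrp8 was lost without B cell array 2 (0.102) or 3 (0.0969), without plasma cell array 1 (0.0839), 2 (0.113) or 3 (0.0807), and with an intensity-dependent variance prior (0.0542). Its other probe sets were at 0.42 and 0.72. The adaptor Dab1 read 21.0, 27.2 and 33.0 in plasma cells, above background on 1 array, and 44.2, 44.3 and 41.7 in B cells (-0.47, adjusted p = 0.0543). Dab1 passed the threshold with array weights (0.00753) and with dim genes left out (0.0335), and its other probe sets ranged between -0.83 and 0.42.

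Below the receptors, Yes1, a Src family kinase, read 1058, 938 and 959 in plasma cells against 56.5, 66.0 and 97.7 in B cells and rose by 3.51 ± 0.19 (adjusted p = 0.000121), although its 3 other probe sets had log2 fold changes of 0.75 to 1.43. Nckap1, a subunit of the WAVE actin-regulating complex, read 388, 296 and 296 in plasma cells and was within background in B cells, at least 11.3-fold higher (adjusted p = 0.00016). Nck2, an SH2 and SH3 adaptor, was the remaining higher gene. Cdk5r1, the activator of the neuronal kinase Cdk5, read 138, 205 and 350 in plasma cells against 584, 772 and 803 in B cells and fell by 1.65 ± 0.34 (adjusted p = 0.0137), a call lost without B cell array 2 (0.0521) or 3 (0.0515) or plasma cell array 2 (0.0549). Its other probe sets were at 0.11, -0.48 and -1.12, and the mean of all its probe sets was at -0.79. Crkl, an adaptor downstream of Dab1, had a log2 fold change of -0.46 (adjusted p = 0.0338) that lost its call in 8 of 16 alternatives, among them leaving out B cell array 2 (0.111) or 3 (0.0881) and plasma cell array 1 (0.110), 2 (0.129) or 3 (0.0697). Its other probe sets were at 0.84, -0.32 and -1.33, so its direction depends on the probe set. The list had 0 genes called lower without B cell array 2 or 3 or plasma cell array 2, and 1 when plasma cell array 1 or 3 was left out.

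The 250 bases before the start of Reln, chr5:22344706-22344955 on the minus strand of GRCm38.p6 (RefSeq), are shown for their base composition, with CG dinucleotides in capitals.
Reln: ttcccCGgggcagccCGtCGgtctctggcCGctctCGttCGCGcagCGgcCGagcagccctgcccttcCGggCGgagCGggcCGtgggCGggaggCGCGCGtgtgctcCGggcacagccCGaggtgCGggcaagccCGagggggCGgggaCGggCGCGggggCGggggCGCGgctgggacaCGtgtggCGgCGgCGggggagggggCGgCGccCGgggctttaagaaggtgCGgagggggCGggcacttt
This window had 37 CG dinucleotides and 80.0% G+C, and 2.20% of all windows had 37 or more. Of the members with log2 fold changes over 6, Prg2 and Rsph1 had no window to read. The others did not share this composition: Pls1 had 10 CG dinucleotides, Pon3 had 6, Oosp1 had 4 and Pgam2 had 1.

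Rsph1, a radial spoke head protein of motile cilia and sperm flagella, read 4994, 4801 and 5261 in plasma cells against 38.6, 13.4 and 13.0 in B cells. All B cell values were within the background of their arrays, so plasma cells were at least 175-fold higher. The means were 5019 ± 231 in plasma cells against 21.7 ± 14.7 in B cells, and the log2 fold change was 7.13, or 7.43 without B cell array 1.

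Of 32 listed cilium genes 28 were measured, 4 (14.3%) were called higher and 3 (10.7%) lower, beside 17.6% and 12.3% of all genes, and the median log2 fold change was 0.04. Without B cell array 1, 7 were higher, and 1 was lower when B cell array 2 or plasma cell array 2 or 3 was left out. Spag6, a protein of the axoneme's central pair, read 618, 420 and 385 in plasma cells against 17.4, 6.65 and 4.26 in B cells, at least 16.2-fold higher (log2 fold change 4.27 ± 0.27, adjusted p = 0.000172). Its close copy Spag6l, looked up after the values of Spag6 were seen, had a log2 fold change of -0.09 (adjusted p = 0.921), or 0.54 without B cell array 1, and the array signals of such copies may not be fully separate. Rsph9, another radial spoke head protein, read 165, 167 and 307 in plasma cells against 8.58, 23.1 and 36.4 in B cells and rose by 2.58 ± 0.36 (adjusted p = 0.00325). Tekt2, a tektin of the axoneme wall, was at least 2.86-fold higher (adjusted p = 0.000427), and Tekt4 was the remaining higher gene.

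On the lower side, Ccdc39, which sets the spacing of axoneme parts, read 912, 905 and 799 in plasma cells against 1913, 1663 and 1759 in B cells and fell by 1.01 ± 0.13 (adjusted p = 0.00201), while its other probe sets were at -1.26 and 0.13. Foxj1, the transcription factor that switches on motile cilium genes, was within background on all 6 arrays. Its call as lower (log2 fold change -0.88, adjusted p = 0.0423) was lost without B cell array 2 (0.120) and without plasma cell array 1 (0.132), 2 (0.110) or 3 (0.111). Dnah5, an outer dynein arm chain, was the other lower gene. In all, 9 of the 28 measured cilium genes were within background on every plasma cell array, among them Foxj1, Dnah5, Hydin, Spag17 and Tekt1.

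Pls1, the plastin of intestinal microvilli and of the hair cells of the ear, read 5457, 5184 and 4635 in plasma cells against 44.0, 44.4 and 19.6 in B cells, above background on 2 B cell arrays. The means were 5092 ± 419 in plasma cells against 36.0 ± 14.2 in B cells, with a log2 fold change of 6.66, or 6.78 without B cell array 1. Its paralogues differed from it. Lcp1, the plastin of leukocytes, read 6142, 5827 and 6175 in plasma cells against 10994, 11050 and 11721 in B cells and fell by 0.89 ± 0.11 (adjusted p = 0.00195), a call lost after median centring (0.057), while its other probe set was at -1.77. Pls3, the plastin of solid tissues, read 126, 179 and 84.7 in plasma cells and was within background in B cells, at least 4.33-fold higher (log2 fold change 1.86 ± 0.34, adjusted p = 0.00926). So the log2 fold changes of the 3 plastins were 6.66, 1.86 and -0.89.

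Among the 16 actin-bundling and membrane skeleton genes, all measured, 2 (12.5%) were called higher and 4 (25.0%) lower, beside 17.6% and 12.3% of all genes. The median log2 fold change was -0.17. Beside Pls3, the higher gene was Fscn1, the actin bundler fascin, with 3439, 3933 and 2897 in plasma cells against 110, 100 and 123 in B cells (4.75 ± 0.16, adjusted p = 3.56e-05). Its other probe sets disagreed in size, at 0.59, 0.94 and 4.39. The adducins, which cap actin in the membrane skeleton, were lower, Add3 by a log2 fold change of -1.63 ± 0.14 (adjusted p = 0.00051) and Add1 by -1.18 ± 0.15 (adjusted p = 0.00234). The fourth lower gene was Ezr, which links actin to the membrane. Median centring left 2 genes called lower.

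Oosp1, oocyte secreted protein 1, read 11008, 10516 and 9727 in plasma cells against 128, 107 and 81.7 in B cells, all above background. The means were 10417 ± 646 in plasma cells against 106 ± 23.3 in B cells, and the log2 fold change was 6.44, or 6.57 without B cell array 1. Its paralogue Oosp2 lies next to it and was also higher. Oosp2 read 4057, 3497 and 2879 in plasma cells against 111, 33.9 and 28.7 in B cells, with B cell array 1 above the other B cell arrays, and rose by 5.72 ± 0.42 (adjusted p = 0.000312). Without B cell array 1 its log2 fold change was 6.20, and the call held in all 16 alternatives. Oosp3, on the other side of Oosp1, read 23.6, 26.7 and 16.4 in plasma cells against 115, 15.0 and 26.5 in B cells, with overlapping groups (-0.55, adjusted p = 0.491). Without B cell array 1 the value of Oosp3 was 0.06, so its sign rests on that array.

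Of 14 listed oocyte genes, all measured, 2 (14.3%) were called higher and 0 lower, beside 17.6% and 12.3% of all genes. The median log2 fold change was -0.09. Within background on every plasma cell array were 8, among them Zp1 and Zp2 of the egg coat and the oocyte growth factor Bmp15. The second higher gene was Mos, the oocyte kinase that activates MAP kinase, which was within background on all 6 arrays (0.46, adjusted p = 0.0223) and lost its call in 9 of 16 alternatives, among them leaving out B cell array 2 (0.0795) or 3 (0.0604) and plasma cell array 1 (0.0959), 2 (0.0882) or 3 (0.0674). At an unadjusted p under 0.05, limma had 2 genes lower, and without B cell array 1, 2 genes were called lower.

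The 250-base windows before Oosp1 and Oosp2 (RefSeq, GRCm38.p6) are printed because these adjacent genes were both far higher in plasma cells. They are chr19:11691052-11691301 for Oosp1 and chr19:11660560-11660809 for Oosp2, both on the minus strand, with CG dinucleotides in capitals.
Oosp1: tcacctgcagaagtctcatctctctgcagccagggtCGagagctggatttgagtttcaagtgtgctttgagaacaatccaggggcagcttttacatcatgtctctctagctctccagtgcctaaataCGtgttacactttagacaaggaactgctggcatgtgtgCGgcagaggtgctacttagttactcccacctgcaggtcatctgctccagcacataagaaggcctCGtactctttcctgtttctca
Oosp2: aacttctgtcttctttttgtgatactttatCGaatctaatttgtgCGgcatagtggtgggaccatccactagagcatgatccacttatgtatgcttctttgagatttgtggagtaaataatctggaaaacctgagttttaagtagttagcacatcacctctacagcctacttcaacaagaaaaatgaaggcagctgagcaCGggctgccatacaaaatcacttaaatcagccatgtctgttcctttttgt
Oosp1 had 4 CG dinucleotides and 49.2% G+C, and Oosp2 had 3 and 39.6%. Both lay below the median of 52.4% G+C over all windows. 5 short motifs were searched on both strands in these windows and in those of the other 7 members with an entry. CAGCTG, a form of the E-box, was in 3 of the 9 windows (Pon2, Pgam2 and Oosp2), and in 13.0% of all windows. CCAAT was in 2 (Pon1 and Pgam2), and in 33.8% of all windows. TGACGTGG, a form of the XBP1 element, was in 0 of 9 and 0.563% of all, GAAAGT, the core of the PRDM1 site, in 0 of 9 and 12.3% of all, and TATAAA in 0 of 9 and 12.4% of all. No motif contains another, and a match is only a match of letters.

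Pgam2, the muscle phosphoglycerate mutase, read 2481, 1363 and 1943 in plasma cells against 4.48, 8.35 and 5.75 in B cells. Plasma cell array 1 was highest and array 2 lowest, and all B cell values were within background, so plasma cells were at least 65.3-fold higher. The means were 1929 ± 560 in plasma cells against 6.19 ± 1.97 in B cells, and the log2 fold change was 6.42, or 6.36 without B cell array 1. Among the members, this fold moved most with the added constant, with 8.06 at a constant of 1 and 4.79 at 64. The ubiquitous paralogue Pgam1 read 3419, 3494 and 3647 in plasma cells against 2735, 3127 and 2742 in B cells (0.30 ± 0.12, adjusted p = 0.12, and 0.0322 with an intensity-dependent variance prior).

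Of 12 listed mutase and lower glycolysis genes 10 were measured, with a median log2 fold change of 0.38. Of these 10, 3 were called higher and 2 lower, beside 17.6% and 12.3% of all genes. With 10 genes, these counts are too small to set the list apart from these shares. Bpgm, the bisphosphoglycerate mutase best known from red cells, read 3830, 3974 and 3766 in plasma cells against 1213, 777 and 955 in B cells and rose by 1.98 ± 0.18 (adjusted p = 0.000695). Eno2, the neuronal enolase, rose by 1.64 ± 0.24 (adjusted p = 0.00357), while Eno3, the muscle enolase, fell by 1.10 ± 0.15 (adjusted p = 0.00315). Pgk1, phosphoglycerate kinase, was called higher (0.56, adjusted p = 0.0121), but not without plasma cell array 1 (0.0578) or 2 (0.0554) or B cell array 2 (0.0523). Ldha, lactate dehydrogenase A, was called lower (-0.58, adjusted p = 0.0299), but not without B cell array 2 (0.0995) or 3 (0.0944) or plasma cell array 1 (0.0942), 2 (0.110) or 3 (0.0813).

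All 12 listed skeletal muscle genes were measured, 3 (25.0%) were called higher and 1 (8.33%) lower, beside 17.6% and 12.3% of all genes, and the median log2 fold change was 0.22. Pfkm, the muscle phosphofructokinase, read 617, 603 and 728 in plasma cells against 70.5, 101 and 95.4 in B cells and rose by 2.67 ± 0.17 (adjusted p = 0.000173). Tnni2, the fast muscle troponin I, read 28.6, 13.9 and 35.0 in plasma cells against 135, 264 and 301 in B cells and fell by 2.54 ± 0.35 (adjusted p = 0.00289), although its other probe sets were at -0.06 and -0.24. The calls for skeletal actin Acta1 (0.64, adjusted p = 0.0182) and muscle glycogen phosphorylase Pygm (0.51, adjusted p = 0.0451) were lost in 5 and 9 of 16 alternatives. Leaving out B cell array 3 (0.061 for Acta1, 0.121 for Pygm), plasma cell array 1 (0.0801 and 0.0612) or plasma cell array 2 (0.079 and 0.155) lost both, and leaving out B cell array 2 (0.136) or plasma cell array 3 (0.133) lost Pygm.

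Over the 8 lists together, 129 genes were measured, of which 21 (16.3%) were called higher and 17 (13.2%) lower, with a median log2 fold change of -0.12. These shares lie near the 17.6% and 12.3% of all genes, so as a group the surrounding genes were called about as often as any others. The count of lower genes was 10 without plasma cell array 2.

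**Figure D4:**
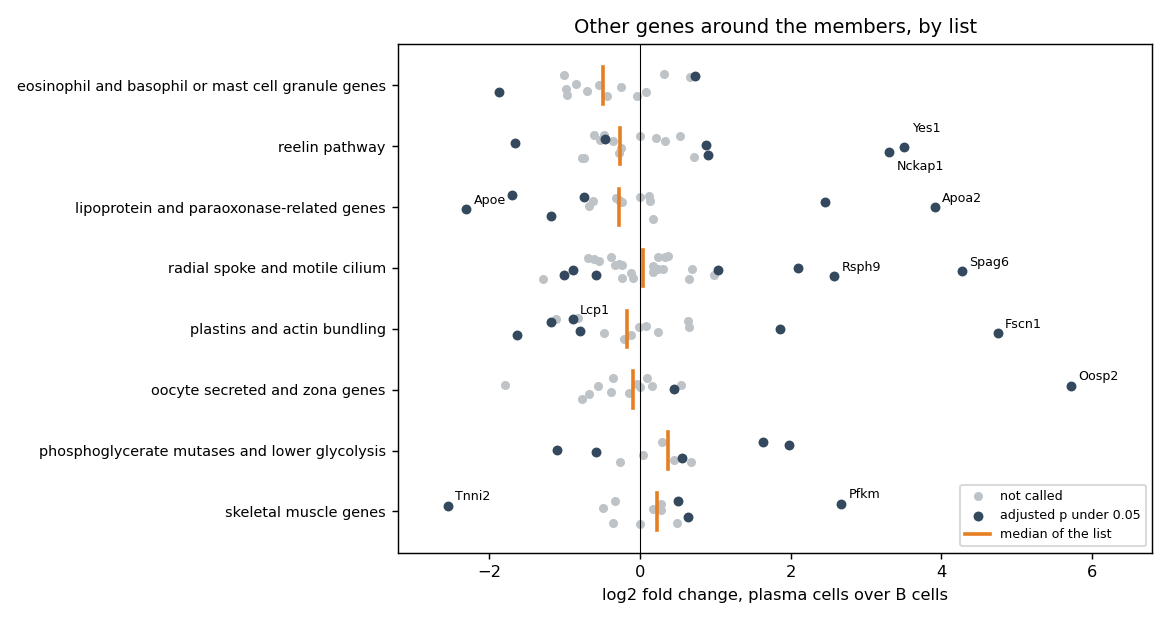
Log2 fold change (plasma cells over B cells) of the 129 other measured genes in 8 lists around the members, with called genes dark, other genes grey and the median of each list as an orange bar. The medians lie between -0.49 and 0.38, and a few genes such as Oosp2, Fscn1, Spag6 and Apoa2 stand far to the right of their lists.

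Genes next to the members on the chromosomes were examined to see how far the high fold changes extended. The 3 nearest measured genes on each side gave 42 genes that are not members. Of these, 9 (21.4%) were called higher and 3 (7.14%) lower, beside 17.6% and 12.3% of all genes. The median log2 fold change was -0.07. Without plasma cell array 1 or plasma cell array 2 the count of lower genes was 0, and without B cell array 3 it was 1. Around Prg2 and Prg3 the order is Slc43a1, Rtn4rl2, Slc43a3, Prg2, Prg3, P2rx3 and Tnks1bp1. P2rx3, an ATP-gated channel of sensory neurons, read 378, 293 and 441 in plasma cells against 10.3, 14.0 and 15.8 in B cells, at least 12.8-fold higher (log2 fold change 3.71 ± 0.18, adjusted p = 8.91e-05), and its 2 other probe sets were at 1.90 and 1.08. Slc43a3, a purine transporter, read 854, 939 and 1345 in plasma cells against 241, 239 and 212 in B cells and rose by 2.08 ± 0.20 (adjusted p = 0.000762). Slc43a1, an amino acid transporter, was called higher at 0.73 (adjusted p = 0.0238), but not without B cell array 2 (0.0817) or 3 (0.0792) or plasma cell array 1 (0.0928) or 2 (0.0792). Rtn4rl2, between both transporters, was not called (-0.35, adjusted p = 0.472).

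Of the 6 neighbours of the paraoxonase genes outside the family, limma called 0 in either direction, and 0 had an unadjusted p under 0.05. Next to Pls1, the cation channel Trpc1 read 326, 252 and 217 in plasma cells against 14.1, 7.99 and 13.6 in B cells, at least 9.11-fold higher (3.32 ± 0.19, adjusted p = 0.000132), although its other probe set was at 0.21. Near Pgam2, Pold2, a subunit of DNA polymerase delta, rose by 1.46 ± 0.16 (adjusted p = 0.00118), and Dbnl, an actin-binding adaptor, had -0.47 (adjusted p = 0.0399) and lost its call without B cell array 2 (0.124) or 3 (0.109) or plasma cell array 1 (0.118), 2 (0.126) or 3 (0.115). Near Rsph1, Wdr4, a partner of a tRNA methyltransferase, had -0.90 (adjusted p = 0.0456), lost without B cell array 2 (0.0555) or 3 (0.0848) or plasma cell array 1 (0.0994), 2 (0.141) or 3 (0.0901).

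Near Reln, the proteasome subunit Psmc2 was called higher (0.71, adjusted p = 0.011), but not without plasma cell array 1 (0.0557), and the ribosome-associated chaperone Dnajc2 was called lower (-0.77, adjusted p = 0.0109), but not without plasma cell array 1 (0.051) or 2 (0.0526). The clone-named gene 5031425E22Rik read 1501, 1260 and 1456 in plasma cells against 410, 148 and 116 in B cells (2.76 ± 0.44, adjusted p = 0.00553). When probe sets that can match several transcripts were left out, 5031425E22Rik stood at -0.46 (adjusted p = 0.404) and Dnajc2 at 0.13 (adjusted p = 0.611), so their directions depend on the probe set. Near Oosp1, the mitochondrial ribosomal gene Mrpl16 was called higher (0.54, adjusted p = 0.0175), but not without B cell array 3 (0.0569) or plasma cell array 1 (0.0699), 2 (0.0731) or 3 (0.0625).

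**Figure D5:**
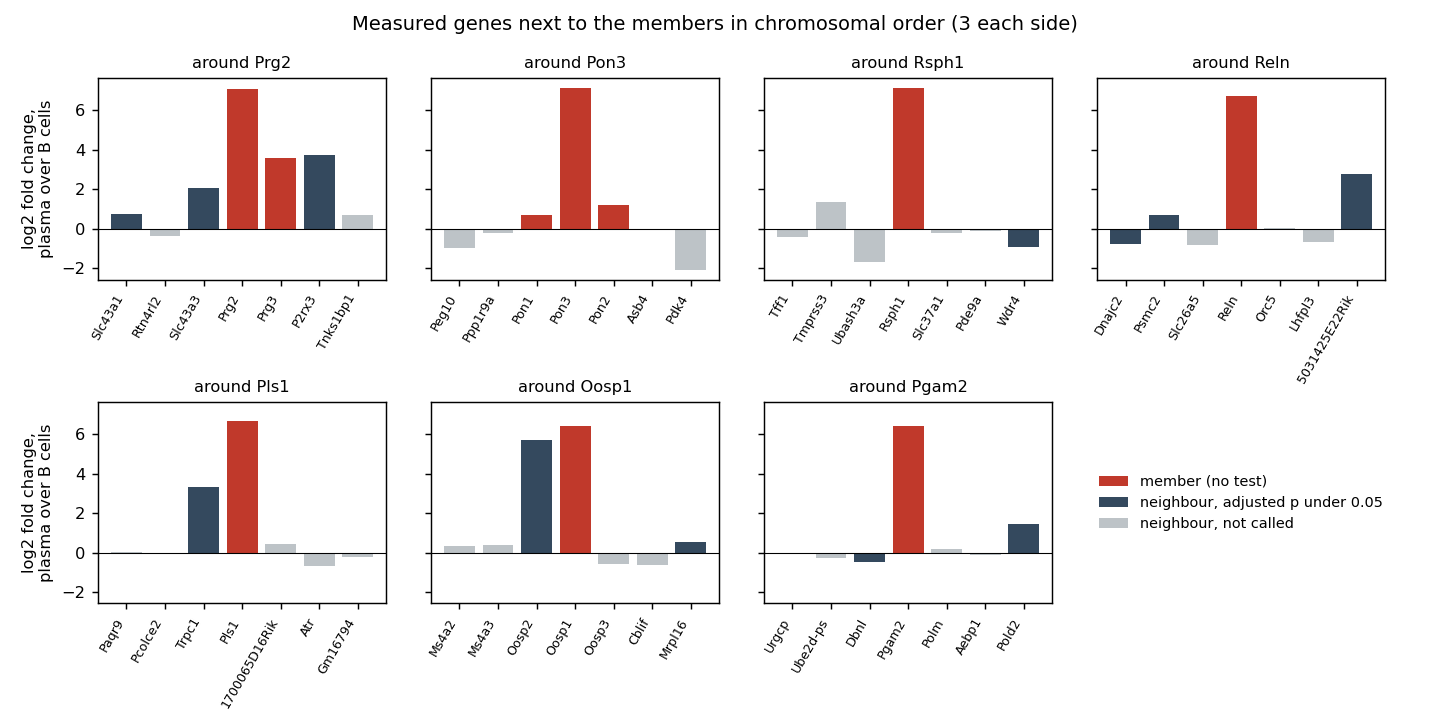
Log2 fold change (plasma cells over B cells) of each member with a fold change over 6 and of the 3 nearest measured genes on each side in chromosomal order, with members red, called neighbours dark and other neighbours grey. Oosp2 beside Oosp1, P2rx3 beside Prg3 and Trpc1 beside Pls1 are the tallest called neighbours. 5031425E22Rik near Reln (2.76) and Slc43a3 beside Prg2 (2.08) come next, and the genes beside Pon3 outside its family are grey.

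The genes whose 6-array pattern was most like that of 3 members were found by the Euclidean distance between log2 values centred on each gene's mean. For Prg2 they were Pon3 at 0.73, Bhlha15 at 0.83 and Reln at 1.07. For Pon3 they were Bhlha15 at 0.59, Tnfrsf17 at 0.68 and Prg2 at 0.73. For Reln they were Oosp1 at 0.44, Cldn7 at 0.50 and Pls1 at 0.55. Bhlha15, a transcription factor of secretory cells, read 5803, 6057 and 5536 in plasma cells against 28.9, 51.8 and 43.8 in B cells, while its other probe set had a log2 fold change of 0.37. Tnfrsf17, the plasma cell receptor BCMA, read 8966, 8409 and 8815 in plasma cells against 38.7, 33.2 and 28.3 in B cells. Cldn7, a tight junction claudin, read 2901, 2269 and 2293 in plasma cells and was within background in B cells, at least 86.2-fold higher. These likenesses rest on 6 arrays and describe mainly the large step between the groups.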

How the data were processed

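The deposited file holds 1 intensity value per probe set and array on a linear scale. The authors' steps behind these intensity values (probe summary, background, normalization) are not given in the sources used here. Probe sets were named through the platform annotation of 2016 and RefSeq GRCm38.p6. 34945 had 1 symbol, 932 several and 9160 none, and 34741 matched by Entrez identifier. Each of 18193 genes used its probe set with the highest mean of log2(intensity + 16).

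Plasma cells were compared with B cells by limma 3.58.1 (lmFit, eBayes) in R 4.3.3, with p-values adjusted over all genes (Benjamini-Hochberg) and called under 0.05. The procedure was tested on simulated data. The background level is the 95th percentile of 27 bacterial control probe sets on each array. Values at or under it on all arrays of a group give only a bound, "at least", computed without the added constant. Fold changes on the log2 scale understate changes of dim genes.

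Members and lists were chosen with earlier results of these data known. Named were all members, up to 3 called higher and 2 called lower genes of each list with the most extreme fold changes, paralogues and reelin receptors, called neighbours, and the 3 genes nearest in pattern to Prg2, Pon3 and Reln. Any other named gene was chosen after its values were seen. Same-numbered arrays correlated at 0.0484, 0.00469 and 0.0458 in their deviations from group means. Means of only 3 arrays a group make such deviations imprecise, so a pairing by number is neither shown nor excluded. 16 alternatives were run. Prg2 and Rsph1 have no entry in the RefSeq promoter table used.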

Additional observations from a re-analysis of the deposited data

How the results depend on the processing

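The members' log2 fold changes kept their sign in all 160 combinations of member and alternative, and in 144 they moved by less than the spread between replicates. Many of these combinations could not differ. The intensity-dependent variance prior, the replicate block and leaving out dim genes leave a member's fold change unchanged, and probe set choices touch only members with several probe sets. The contrast also chose 7 members, so no stability is read from these counts. Counts of calls moved as well. Of all genes, 3193 were higher and 2246 lower. Array weights gave 4840 and 4654, and median centring, which shifted the median log2 fold change of all genes by 0.12, gave 1243 lower. Leaving out 1 array gave 2224 to 4121 higher and 1347 to 3830 lower. Of the surrounding pathway genes, array weights called 33 higher and 28 lower, median centring 9 lower, and leaving out 1 array 17 to 30 higher and 10 to 22 lower. Of the neighbouring genes, array weights called 5 lower, the mean of all probe sets 1 and median centring 0, and leaving out 1 array 7 to 12 higher and 0 to 4 lower. With the replicate block, 2457 genes were higher and 1664 lower, 17 and 12 of the pathway genes, and 8 and 2 of the neighbouring genes. The numbers were not shown to pair the arrays. Of 764 combinations of 48 named genes and an alternative, 654 kept their call and direction, 102 lost the call, 4 gained one and 4 reversed. These were Dnajc2 at 0.13 and 5031425E22Rik at -0.46 without probe sets that can match several transcripts, and Oosp3, which was not called, at 0.19 with array weights and 0.06 without B cell array 1 (-0.97 to 0.06 on leaving out 1 array). 25 of the 48 genes kept call and direction throughout. The cause of these differences was not tested. Signal over background limits Prg3, Rsph1 and Pgam2, whose B cell values give only a lower bound on the fold, and 3 arrays a group limit the precision throughout.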
